A study of Mus musculus with 12 samples.

Results

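The genes described here encode the respiratory chain proteins that are made from nuclear DNA. They were taken as the genes with a probe set of a single symbol that begins with Nduf, Sdha, Sdhb, Sdhc, Sdhd, Uqcr, Cox4, Cox5, Cox6, Cox7, Cox8 or Atp5, and the probe set of highest mean was to stand for each symbol. The rule uses names and no difference between groups. It found 62 genes of 14860, each with 1 probe set: 33 for complex I, 6 for complex II, 5 for complex III, 10 for complex IV and 8 for complex V. Another 8 probe sets carry a matching symbol beside other symbols (Ndufa10, Ndufa11, Sdhaf1, Cox6c, Cox7a2l, Atp5c1, Atp5j and Atp5o) and were left out.

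The respiratory chain sits in the inner membrane of the mitochondrion. Complex I takes electrons from NADH and complex II takes them from succinate, and both pass them through coenzyme Q to complex III. Cytochrome c carries them on to complex IV, which reduces oxygen, and complex V uses the proton gradient built on the way to make ATP. Each complex except complex II also holds proteins encoded by mitochondrial DNA, for which none of 26 names searched had a probe set, so all values here concern nuclear genes. In blood formation, stem cells are known for a low reliance on this chain and dividing myeloid progenitors for a higher one.

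All 12 arrays come from primary bone marrow cultures of progenitor cells that carried retroviral Hoxa9, a homeobox gene that keeps myeloid progenitors growing. The donors were female C57B/6 mice, 12 weeks old, given 5-FU (fluorouracil, which kills cycling marrow cells) before marrow was taken. All cultures were transduced with MSCV constructs, a murine retroviral vector, and grown in DMEM with 15% FCS, IL3, SCF and IL6. Hoxa9 was combined with MIG, an empty vector, in wild-type cells (3 arrays), with miR-155 in wild-type cells (3 arrays), with MIG in cells from miR-155 KO mice (3 arrays), with Meis1, a homeobox partner of Hoxa9, in wild-type cells (1 array), or with MIY, another empty vector, in wild-type cells (2 arrays). Only the title of the Meis1 array carries the mark 3w, which the labels do not explain. Any difference that it marks cannot be told apart from that of Meis1. The design text speaks of independent experiments, but nothing ties an array to a culture or animal, so p-values measure the spread between these arrays, which may be partly technical.

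The values are log2 levels, and a difference of 1 is a doubling. Differences were tested with limma over 16015 probe sets, and a gene was called at a Benjamini-Hochberg adjusted p under 0.05. Hoxa9 read 13.07 to 13.41 on all arrays and the Meis1 gene read 12.11 in the culture given Meis1 and 6.74 to 8.10 elsewhere, while no probe set is named for miR-155. Markers of myeloid progenitors averaged 11.18 to 11.77 on every array, and those of T and B cells 4.48 to 5.14. The cultures differed in markers of other myeloid cells. The mean of 5 mast cell and basophil markers was 10.35 to 10.66 in MIG, 10.19 to 10.30 in the knockout, 8.83 to 9.02 with miR-155, 7.81 to 7.84 in MIY and 7.71 with Meis1. In the same order, 2 eosinophil markers averaged 10.21 to 10.74, 9.42 to 9.86, 8.15 to 8.46, 6.97 to 8.20 and 6.44, and 4 macrophage markers 9.53 to 9.67, 9.48 to 9.62, 8.35 to 8.71, 8.91 to 9.55 and 7.51. The macrophage markers did not move together. As group means Adgre1 read 9.94 in MIG, 10.50 in MIY and 10.77 with Meis1, while Mrc1 read 10.44, 8.59 and 3.89. Cd68 read 11.64, 11.18 and 10.06, and C1qa 6.38, 6.65 and 5.32. The progenitor markers did not move together either. Mpo, the myeloperoxidase of granulocyte precursors, read 10.99 with Meis1 and 12.71 to 13.39 on the other arrays. Itgam read 10.41 against 11.35 to 12.10, and Csf3r 8.29 against 9.19 to 10.30. Kit (10.06 against 9.25 to 9.92) and Ctsg (12.62 against 12.10 to 12.46) were higher with Meis1. Cd34, Elane and Prtn3 lay within the range of the other arrays. The Y-linked genes Eif2s3y and Kdm5d averaged 8.64 to 8.73 in MIY and 7.57 with Meis1 but 2.77 to 2.97 on the remaining 9 arrays, although all donors were labelled female. Whether these differences have a part in any result below was not tested. In such mixed cultures, fewer cells of a type and less RNA per cell cannot be told apart.

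Over all tested probe sets the median log2 change was 0.21 for miR-155 against MIY, -0.22 for MIY against MIG and 0.11 for Meis1 against the empty vectors, and within 0.02 of 0 in the other comparisons. In those 3 comparisons the changes of the called genes described are therefore also given as relative changes. For these, the median deviation of each array from the probe set means over all arrays was taken off. This scaling is called a common median here, and it does not set the medians of the levels themselves equal.

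The miRNA that was added or deleted, from RefSeq (GRCm38.p6, chr16:84714143-84714165, plus strand), is shown with its seed, bases 2 to 8, in capitals. Sites for it in the respiratory chain transcripts were not searched.
mmu-miR-155-5p: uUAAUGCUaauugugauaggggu

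Promoters of respiratory chain genes are known for sites of the factors NRF1 and GABPA (an ETS factor), which bring the complexes under shared control. RefSeq promoters, 250 bases before to 50 after the start of transcription, were matched for 51 of the 62 genes. The NRF1 motif, GCGCA and GCGC with any base between them, read on both strands, was in the promoters of 12 of these genes (23.5%) against 5.19% of 27025 genes. The ETS letters CCGGAAG were found for 9 genes (17.6%) against 9.93%, the YY1 motif, AAGAT directly followed by GGCGG, for 4 genes (7.84%) against 0.995%, and the SP1 letters GGGCGG, which can overlap the other motifs, for 26 genes (51%) against 38.2%. These shares describe letters and are no evidence of binding. Shown are the promoters of the gene called with miR-155 (Cox6b1) and of 5 of the 6 genes called with Meis1 against each empty vector on both scalings (Uqcrc1, Sdhb, Sdhd, Atp5g3 and Ndufb2, without Atp5a1), on GRCm38.p6, 5′ to 3′ along the gene, with NRF1 and ETS matches on either strand in capitals. The promoter of Ndufb2 holds none of the 4 motifs. An NRF1 match was also found for Ndufa6, called lower with Meis1, and for Sdha and Sdhaf4, not called against the empty vectors. Whether the motifs go with the changes was not tested.
Cox6b1, chr7:30626065-30626364, minus strand, an ETS match: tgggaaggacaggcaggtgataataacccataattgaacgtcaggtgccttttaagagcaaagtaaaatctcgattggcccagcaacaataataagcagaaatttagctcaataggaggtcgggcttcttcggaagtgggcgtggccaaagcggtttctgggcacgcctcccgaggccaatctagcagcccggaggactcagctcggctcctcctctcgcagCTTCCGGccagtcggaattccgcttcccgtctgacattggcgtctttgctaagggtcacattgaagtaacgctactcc
Uqcrc1, chr9:108936398-108936697, plus strand, a pair of NRF1 matches: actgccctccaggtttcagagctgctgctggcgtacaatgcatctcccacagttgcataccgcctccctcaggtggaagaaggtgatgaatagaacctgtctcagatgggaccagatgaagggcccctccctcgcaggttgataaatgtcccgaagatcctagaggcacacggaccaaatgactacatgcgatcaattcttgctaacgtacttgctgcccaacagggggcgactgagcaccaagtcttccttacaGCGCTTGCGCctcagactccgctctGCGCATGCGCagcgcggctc
Sdhb, chr4:140961021-140961320, plus strand, an ETS match: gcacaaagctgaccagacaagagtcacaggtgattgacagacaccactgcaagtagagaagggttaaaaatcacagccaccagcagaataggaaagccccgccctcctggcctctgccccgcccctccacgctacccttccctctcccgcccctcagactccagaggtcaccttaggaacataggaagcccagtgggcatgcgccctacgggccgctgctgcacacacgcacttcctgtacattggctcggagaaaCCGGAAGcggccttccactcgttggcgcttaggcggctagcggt
Sdhd, chr9:50603800-50604099, minus strand, an NRF1 and an ETS match: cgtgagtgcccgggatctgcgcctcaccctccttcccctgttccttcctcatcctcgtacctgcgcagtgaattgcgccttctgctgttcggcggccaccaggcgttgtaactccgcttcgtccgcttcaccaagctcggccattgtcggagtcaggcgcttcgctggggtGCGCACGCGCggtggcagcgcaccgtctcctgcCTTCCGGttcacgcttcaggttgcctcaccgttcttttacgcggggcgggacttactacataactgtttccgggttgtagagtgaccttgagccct
Atp5g3, chr2:73911277-73911576, minus strand, an NRF1 match: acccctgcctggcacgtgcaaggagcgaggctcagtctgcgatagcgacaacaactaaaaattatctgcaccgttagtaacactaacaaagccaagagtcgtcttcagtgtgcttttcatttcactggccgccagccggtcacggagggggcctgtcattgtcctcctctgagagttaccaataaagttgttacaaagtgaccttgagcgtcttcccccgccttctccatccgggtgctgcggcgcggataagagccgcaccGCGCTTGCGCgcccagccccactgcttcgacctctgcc
Ndufb2, chr6:39592315-39592614, plus strand, no match: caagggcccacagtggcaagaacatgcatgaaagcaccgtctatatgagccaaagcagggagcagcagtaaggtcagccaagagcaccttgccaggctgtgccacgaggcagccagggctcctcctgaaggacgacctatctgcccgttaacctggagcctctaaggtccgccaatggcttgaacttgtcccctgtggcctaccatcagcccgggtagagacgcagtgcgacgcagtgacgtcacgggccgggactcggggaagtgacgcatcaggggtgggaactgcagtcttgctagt

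Levels of the respiratory chain genes were steady between replicate arrays. The median SD over the 62 genes was 0.10 (0.09 over all probe sets) in MIG and 0.09 (0.11) with miR-155. It was 0.12 (0.09) in the knockout cultures and 0.13 (0.13) in MIY. Relative to all genes, the median deviation of the 62 genes from the MIG mean ran from -0.07 to 0.05 on the MIG arrays, from 0.08 to 0.12 with miR-155, from -0.03 to 0.09 in the knockout, and was 0.19 on the Meis1 array. The MIY arrays differed from each other, at 0.16 and 0.01. Of the 62 genes, 53 read higher on MIY array 1 than on MIY array 2, by a median of 0.17, while the median difference over all probe sets was 0.00.

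**Figure D1:**
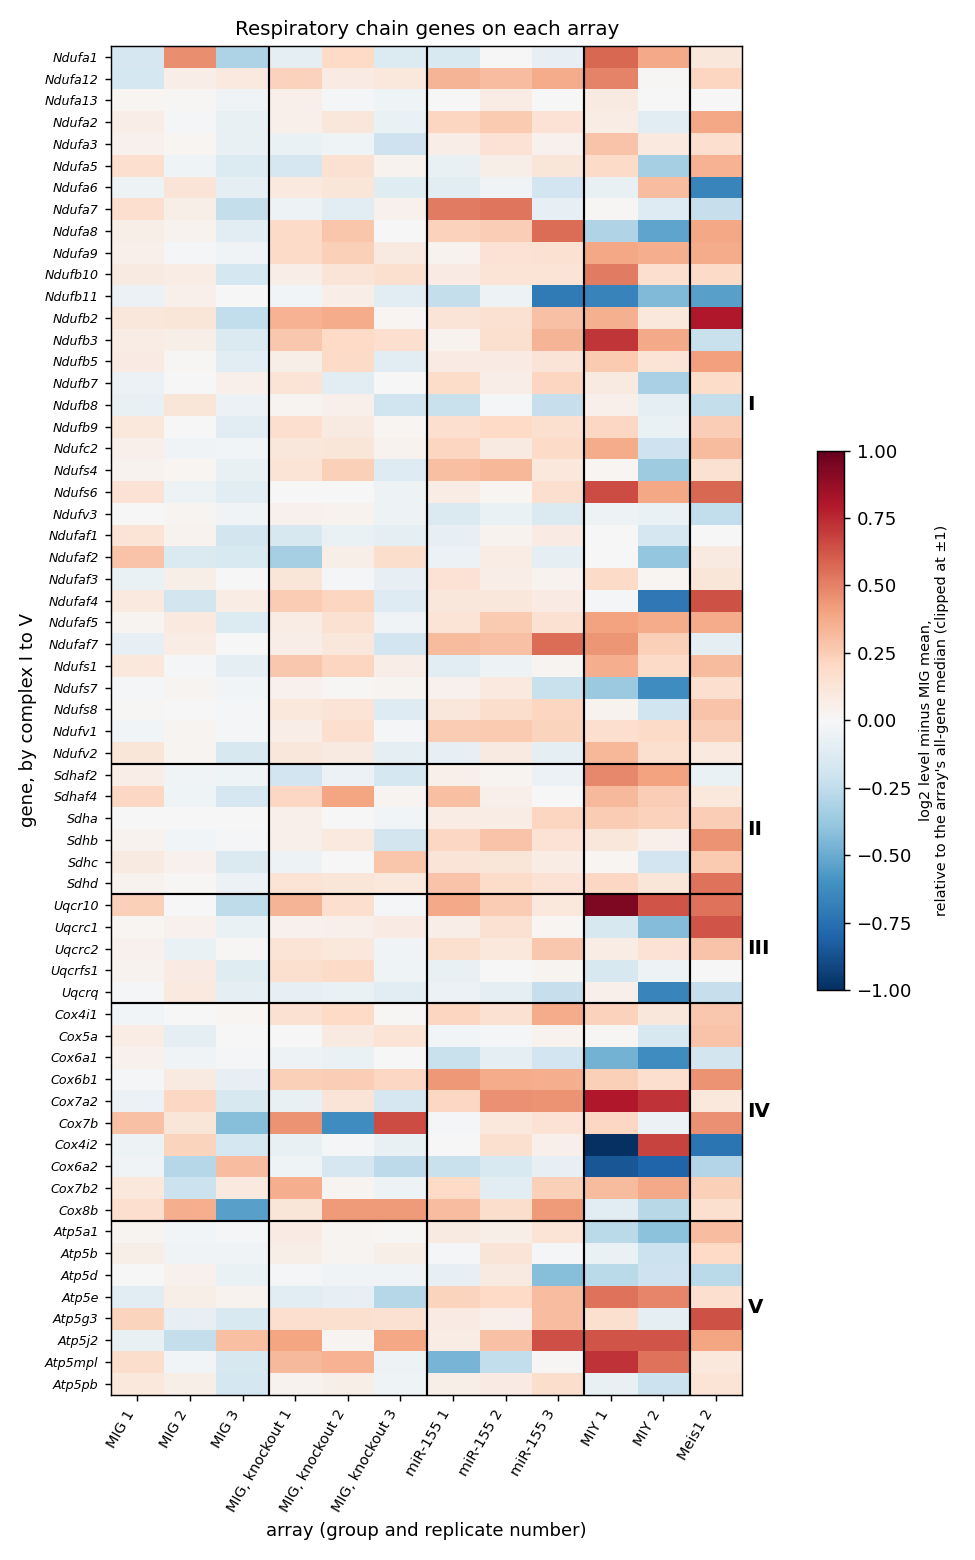
Log2 level of each of the 62 genes (rows, by complex I to V) on each of the 12 arrays (columns), as the difference from the MIG mean after the all-gene median difference of the array is taken off, with red higher and blue lower and the colour clipped at 1. The Meis1 column is mostly red, the MIY columns hold the strongest reds and blues, and the knockout and miR-155 columns stay pale for most genes.

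The comparison of miR-155 with MIG asks what added miR-155 changes. A single respiratory chain gene of 62 was called, against 3.29% of all probe sets (0.612% higher and 2.68% lower), and the same gene at a common array median, against 3.49% (0.868% higher and 2.62% lower). Cox6b1, a complex IV subunit on the side of the intermembrane space that joins its monomers, read 11.24, 11.38 and 11.19 in MIG and 11.65, 11.64 and 11.63 with miR-155. All miR-155 arrays lay above all MIG arrays. The rise was 0.37 ± 0.07 on the log2 scale (SE, limma adjusted p = 0.0157), or 1.29-fold. The call was lost without MIG array 1, MIG array 3, miR-155 array 1 or miR-155 array 3, with an adjusted p of at most 0.0814.

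No other gene of complexes I to V passed the test with added miR-155, although 12 of the 62 had an unadjusted p under 0.05. Among all 16015 probe sets, 2457 did. The median log2 change was 0.09, with 44 genes above 0, against -0.01 for all probe sets. By complex the medians were 0.08 for complex I, 0.10 for complex II, 0.06 for complex III, 0.08 for complex IV and 0.08 for complex V. The extremes of complex I were Ndufaf7, an assembly factor (0.37 ± 0.12, limma adjusted p = 0.135), and Ndufb11, an accessory subunit (-0.35 ± 0.15, adjusted p = 0.288). Neither passed the test.

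In complex II the highest change with miR-155 was that of Sdhb, the iron-sulphur subunit (0.20 ± 0.09), and the lowest that of Sdhaf2, which helps attach flavin to Sdha (-0.01 ± 0.07). In complex III the small subunits Uqcr10 (0.23 ± 0.14) and Uqcrq (-0.14 ± 0.15) were the extremes. Cox6a1, the widely expressed form of complex IV subunit 6a, was the lowest of its complex at -0.19 ± 0.07. In complex V the changes ran from -0.25 ± 0.16 for Atp5mpl, a small proteolipid of the Fo part, to 0.32 ± 0.17 for Atp5j2, subunit f. These are values of genes that were not called.

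Subunits at the heart of each complex were not called with miR-155. Ndufs1, the largest iron-sulphur subunit of complex I, changed by -0.07 ± 0.09, and Ndufv1, which binds NADH, by 0.23 ± 0.07 without passing the test (limma adjusted p = 0.139). The values were 0.10 ± 0.07 for Sdha, the flavoprotein of complex II, 0.06 ± 0.08 for the complex III core protein Uqcrc1 and -0.03 ± 0.09 for Uqcrfs1, the Rieske iron-sulphur protein. They were 0.23 ± 0.09 for Cox4i1, -0.02 ± 0.08 for Cox5a, 0.08 ± 0.07 for the ATP synthase alpha subunit Atp5a1 and 0.02 ± 0.07 for the catalytic beta subunit Atp5b.

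Loss of miR-155 was compared in cells with the same vector. None of the 62 genes was called between the knockout and MIG, against 0.0312% of all probe sets (0.0187% higher) on either scaling, and 1 had an unadjusted p under 0.05 (774 of all probe sets did). The median log2 change was 0.03, with 38 genes above 0. The smallest p belonged to Cox6b1, which read 11.49, 11.54 and 11.44 in the knockout. These arrays lay above those of MIG, by 0.22 ± 0.07 (limma adjusted p = 0.879), so Cox6b1 read higher than in MIG both with miR-155 added and with it deleted, and was called only with it added; both comparisons share the MIG arrays.

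The changes in the knockout stayed between -0.17 for Cox6a2, the muscle form of subunit 6a, and 0.31 for Cox8b, the muscle form of subunit 8. In complex I they ran from -0.12 for the assembly factor Ndufaf1 and the accessory subunit Ndufa3 to 0.23 for the accessory subunit Ndufb2. In complex II they ran from -0.15 for Sdhaf2 to 0.19 for the assembly factor Sdhaf4, in complex III from -0.10 for Uqcrq to 0.15 for Uqcr10, and in complex V from -0.17 for Atp5e to 0.26 for Atp5j2. Ndufs1 (0.17 ± 0.09) and Cox4i1 (0.11 ± 0.09) were the largest of the fixed set of subunits named above, with Ndufv1 at 0.06 and the others within 0.10 of 0.

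Added miR-155 against the knockout gave 1 call among the 62 genes, against 4.06% of all probe sets (1.09% higher and 2.98% lower), and it was a different gene. At a common array median it was also called, against 4.52% (1.37% higher and 3.15% lower). Atp5e, the epsilon subunit in the central stalk of complex V, read 8.44, 8.47 and 8.58 with miR-155 and 8.14, 8.21 and 7.94 in the knockout. The groups did not overlap. The difference was 0.40 ± 0.09 (limma adjusted p = 0.0326), or 1.32-fold, and the MIG arrays at 8.15, 8.35 and 8.30 overlapped those of the knockout. The call was lost when any of 5 of the 6 arrays was left out, with an adjusted p of at most 0.112, and kept without knockout array 2.

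Over the 62 genes the median change was 0.04, with 36 above 0. Of the 62, 10 had an unadjusted p under 0.05, against 2562 of all 16015 probe sets. Medians were 0.05 for complex I, 0.09 for complex II, 0.02 for complex III, -0.00 for complex IV and 0.02 for complex V. The largest differences that were not called were 0.40 ± 0.13 for Cox7a2, a subunit 7a of complex IV (limma adjusted p = 0.138), 0.39 ± 0.12 for Ndufaf7 (adjusted p = 0.107) and -0.44 ± 0.16 for Atp5mpl (adjusted p = 0.185). Ndufs1 read 8.90 to 9.09 with miR-155 and 9.10 to 9.32 in the knockout, ranges that almost meet. Its difference of -0.23 ± 0.09 did not pass the test (limma adjusted p = 0.238). No gene of the electron carrier, citric acid cycle, assembly factor or biogenesis lists was called with the deposited values in these 3 comparisons of MIG, miR-155 and the knockout. At a common median Pcx, pyruvate carboxylase, which refills the citric acid cycle, was called lower with miR-155 than in the knockout (relative -0.52, limma adjusted p = 0.047, and 0.0699 with the deposited values).

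**Figure D2:**
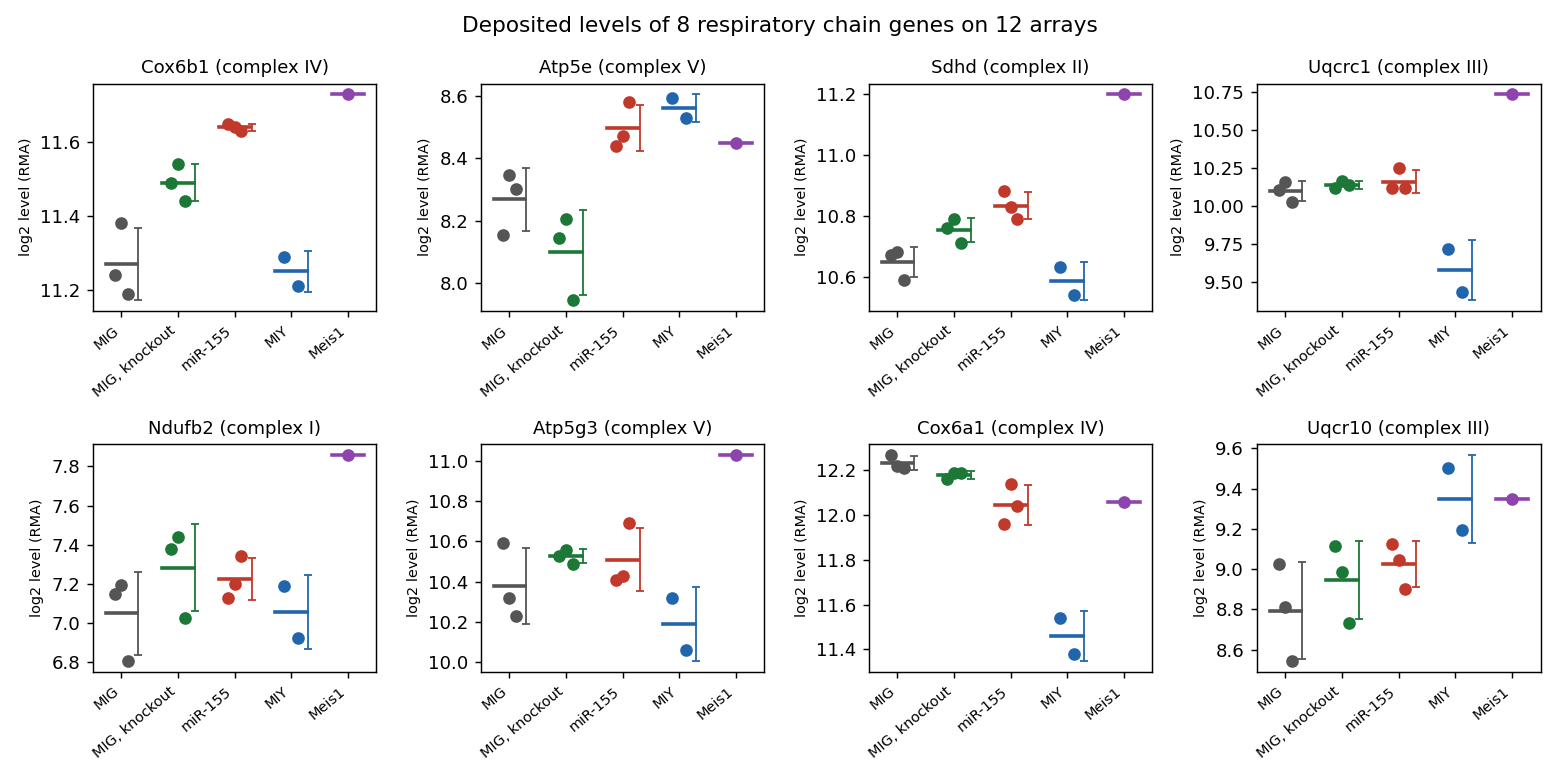
Deposited log2 levels of 8 respiratory chain genes (one panel each) on the 12 arrays, with points for arrays, horizontal bars for group means and error bars for the SD where a group has more than 1 array; the axes do not start at 0. Cox6b1 is lowest in MIG and MIY and highest on the Meis1 array, Cox6a1 and Uqcrc1 are low in MIY, and Sdhd, Uqcrc1, Ndufb2 and Atp5g3 peak on the Meis1 array.

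The empty vectors MIY and MIG were compared as controls, since the design text names MIY as the control of miR-155 while most arrays carry MIG. They differed in 25 of the 62 genes, 5 higher and 20 lower in MIY, against 9.1% higher and 40.4% lower of all probe sets. With a common array median, 15 were higher and 7 lower, against 19.9% and 18.7%, so the direction of the group turns with the scaling. The members' median was -0.15 as deposited and 0.08 relative to all genes. The shares called lie near or below those of all probe sets on either scaling, except for the higher genes at a common median (24.2% of the members).

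The genes that fell in MIY under both scalings were Ndufs7, Ndufa8, Ndufb11, Uqcrc1, Cox6a1, Cox6a2 and Atp5a1. Cox6a1 read 12.27, 12.22 and 12.21 in MIG and 11.54 and 11.38 in MIY, a change of -0.77 ± 0.08 (limma adjusted p = 6.25e-05), or 0.585-fold, with a relative change of -0.55. Its muscle form Cox6a2 read 8.04, 7.81 and 8.39 in MIG and 7.01 and 7.05 in MIY, a change of -1.05 ± 0.15 (adjusted p = 0.000362) and a relative one of -0.83. Both forms of subunit 6a were thus below every array of the other groups, and the probe sets of such isoforms may share signal.

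In complex I, Ndufs7, an iron-sulphur subunit next to the quinone site, read 11.51, 11.58 and 11.50 in MIG and 10.94 and 10.68 in MIY (-0.72 ± 0.10, limma adjusted p = 0.000445, relative -0.50). Ndufb11 fell from 7.17, 7.30 and 7.24 to 6.35 and 6.57 (-0.78 ± 0.16, relative -0.55), and Ndufa8 from 10.07, 10.08 and 9.92 to 9.50 and 9.27 (-0.64 ± 0.14, relative -0.41). For these genes the arrays of the groups did not overlap. In complex III, Uqcrc1 fell from 10.11, 10.16 and 10.03 to 9.72 and 9.44 (-0.52 ± 0.09, relative -0.30). In complex V, Atp5a1 fell from 11.44, 11.41 and 11.41 to 10.93 and 10.78 (-0.57 ± 0.07, adjusted p = 0.000235, relative -0.34). The calls of Ndufa8, Ndufb11 and Uqcrc1 were each lost in 1 alternative setting, with adjusted p-values of at most 0.173, 0.115 and 0.164.

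The genes that rose in MIY under both scalings were Ndufs6, Sdhaf2, Uqcr10, Cox7a2 and Atp5e. Uqcr10 read 9.03, 8.81 and 8.54 in MIG and 9.51 and 9.20 in MIY (0.56 ± 0.16, limma adjusted p = 0.0158, relative 0.78). Cox7a2 read 6.33, 6.63 and 6.24 in MIG and 6.98 and 6.89 in MIY (0.54 ± 0.14, adjusted p = 0.012, relative 0.76). Subunits of the same complex therefore went opposite ways, with Uqcrc1 down and Uqcr10 up in complex III, Cox6a1 down and Cox7a2 up in complex IV, and Atp5a1 down and Atp5e up in complex V. Each of these 5 calls was lost when at least 1 MIG or MIY array was left out, with the highest adjusted p between 0.054 for Cox7a2 and 0.266 for Ndufs6.

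The other 13 falls in MIY were called with the deposited values alone. They were Ndufs8, Ndufs4, Ndufv3, Ndufb7, Ndufaf1, Ndufaf4, Sdhc, Uqcrfs1, Uqcrq, Cox5a, Atp5b, Atp5d and Atp5pb, with changes from -0.28 for Ndufv3 to -0.59 for Ndufaf4 and relative changes from -0.06 for Ndufv3 to -0.37 for Ndufaf4. Uqcrq, at 9.60 and 8.88 in MIY, and Ndufaf4, at 7.76 and 7.05, differed between the MIY arrays by more than the fall itself. Another 10 genes were called higher at a common median alone, among them Atp5mpl (0.41 ± 0.18 as deposited, relative 0.63) and Ndufb3 (0.32 ± 0.13, relative 0.54). Ndufs1 (0.05, relative 0.28) and Sdha (0.02, relative 0.24) were among these. Ndufv1 (-0.05, relative 0.18), Sdhb (-0.14, relative 0.08) and Cox4i1 (-0.05, relative 0.17) were not called on either scaling, and their sign turned with it.

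Against MIY, the named control, added miR-155 gave 28 calls among the 62 genes, 26 higher and 2 lower, against 48.3% of all probe sets (38.5% higher and 9.85% lower). With a common array median there were 7 higher and 9 lower, against 18.2% and 19.6%, and the median of the 62 went from 0.28 to 0.07. The higher genes on both scalings were Ndufs4, Ndufs7, Ndufa8, Uqcrc1, Cox6a1, Cox6a2 and Atp5a1, and the lower ones were Sdhaf2 and Atp5mpl. This comparison shares its MIY arrays with the comparison of the empty vectors. Without MIY array 2, which leaves a single MIY array, fewer genes were called, both among the 62 and over all probe sets.

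Ndufa8, an accessory subunit of complex I, read 10.20, 10.27 and 10.58 with miR-155 and 9.50 and 9.27 in MIY (0.96 ± 0.14, limma adjusted p = 0.00046, relative 0.76), with MIG between them at 9.92 to 10.08. Cox6a1 read 11.96, 12.14 and 12.04 with miR-155, above MIY by 0.59 ± 0.08 (relative 0.38) and below the MIG arrays. Atp5mpl read 9.48, 9.75 and 10.01 with miR-155 and 10.50 and 10.31 in MIY (-0.66 ± 0.18, limma adjusted p = 0.0119, relative -0.86). Its call was lost without MIY array 1, and that of Sdhaf2 in 4 of the 5 runs that left out an array. Cox6b1, the gene called against MIG, was above MIY by 0.39 ± 0.08 (adjusted p = 0.00232), and by a relative 0.19 that was not called (adjusted p = 0.0671). Atp5e, called against the knockout, did not differ beyond the test from MIY as deposited (-0.07 ± 0.10) and was lower at a common median (-0.27, adjusted p = 0.034).

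**Figure D3:**
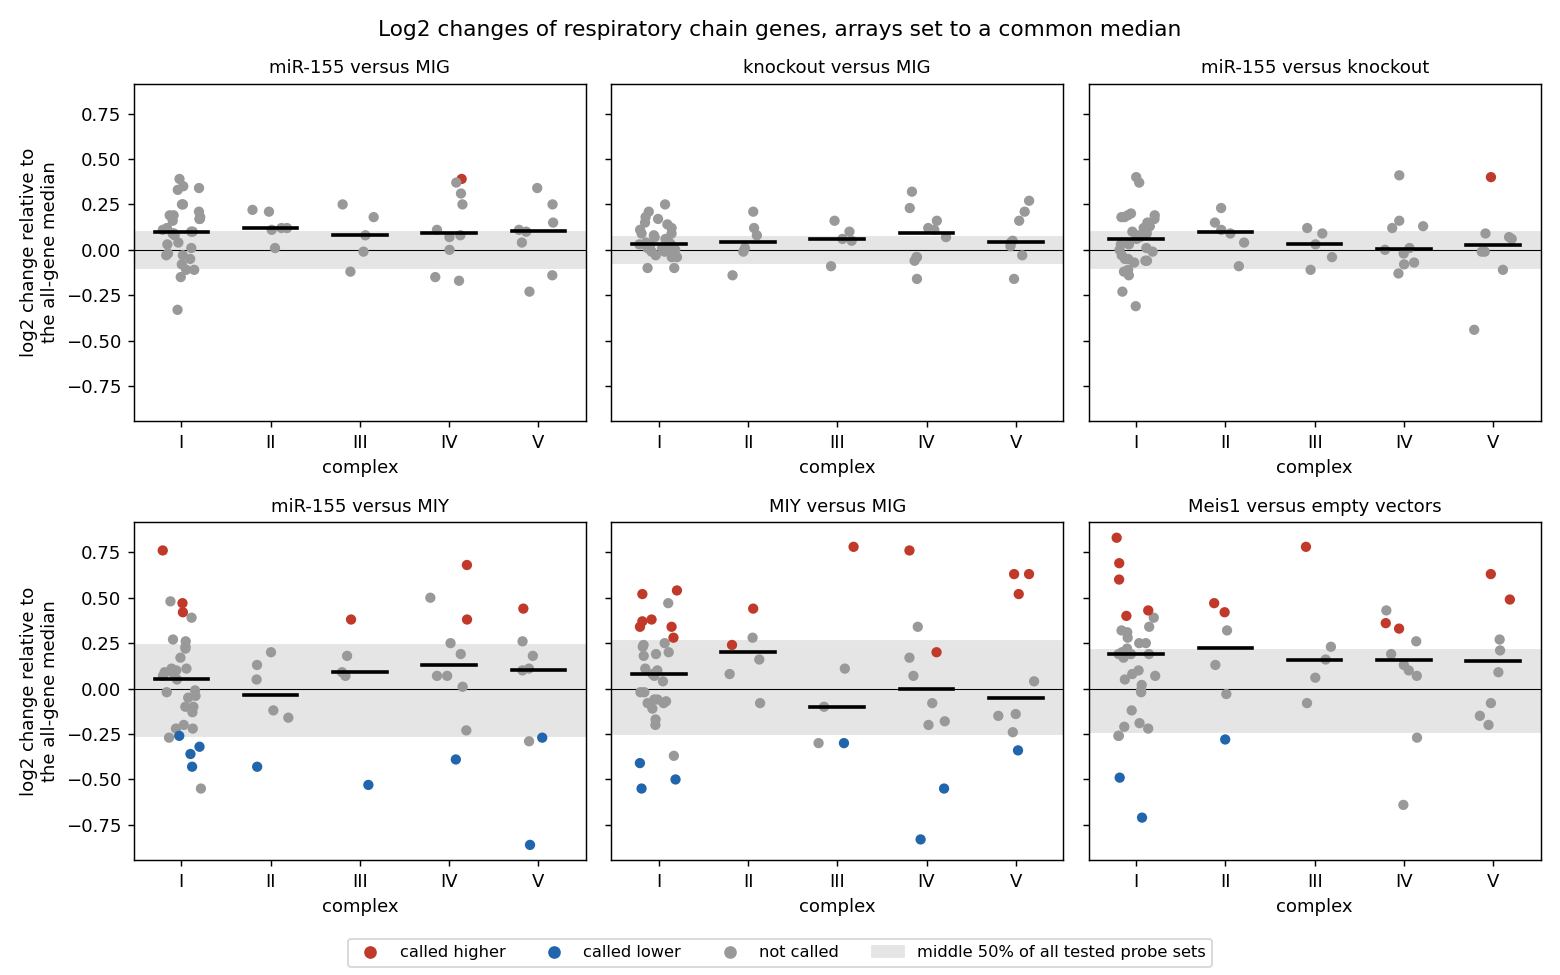
Log2 change of each respiratory chain gene relative to the all-gene median (vertical axis), by complex I to V (horizontal axis), in 6 comparisons, with called genes in red (higher) or blue (lower), black bars for the median of a complex and a grey band for the middle 50% of all probe sets. In the top row 2 genes are called, while in the MIY comparisons called genes lie on both sides of 0 and in the Meis1 comparison the median of every complex lies between 0.15 and 0.22.

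The single Meis1 array was compared with the equally weighted mean of MIG and MIY, because the labels do not say which control belongs to it; it has no replicate, so its spread is taken from the other groups. Respiratory chain genes were mostly higher on it. Of the 62 genes, 19 were called higher and 1 lower, against 27.1% of all probe sets (17.1% and 9.93%), with a median change of 0.29 and 49 genes above 0. At a common median 12 were higher and 3 lower, against 23.3% (9.57% and 13.7%), with a median of 0.18. The 12 genes called higher under both scalings were Ndufs7, Ndufa2, Ndufa8, Ndufb2, Ndufaf4, Sdhb, Sdhd, Uqcrc1, Cox5a, Cox6b1, Atp5a1 and Atp5g3, from all 5 complexes, and Ndufa6 was lower under both.

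The controls differ, so each was also used alone. Against MIG, 9 genes were higher and 1 lower as deposited, against 5.97% and 9.39% of all probe sets, and 12 higher and 1 lower at a common median, against 6.49% and 10.1%. Against MIY, 25 were higher and 2 lower, against 33.1% and 11%, or 14 higher and 5 lower at a common median, against 34.1% (15.4% and 18.7%). The share of higher members was thus above that of all probe sets against MIG on both scalings. The median change of the 62 genes was 0.20 against MIG on both scalings, and 0.31 against MIY as deposited but 0.08 at a common median. Genes called higher against each control alone were Sdhb, Sdhd, Ndufb2, Uqcrc1, Atp5a1 and Atp5g3 on both scalings, with Cox6b1 added as deposited and Ndufa2 at a common median; Ndufa6 was lower each time.

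The Meis1 array was the highest of all 12 arrays for 26 of the 62 genes (41.9%), against 21.2% of all probe sets, and for 18 (29%) at a common median, against 16.7%. It was the lowest for 2, Ndufa6 and Ndufb3, against 12.6%, and for 4 at a common median, against 17.3%. A single array gives this count no error.

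Uqcrc1, core protein 1 of complex III, read 10.74 on the Meis1 array. The other arrays read 10.03 to 10.16 in MIG, 10.12 to 10.25 with miR-155, 10.12 to 10.17 in the knockout and 9.44 to 9.72 in MIY. The difference from the empty vectors was 0.89 ± 0.11 (limma adjusted p = 0.000368), or 1.86-fold, with a relative 0.78. It was 0.63 ± 0.12 against MIG and 1.16 ± 0.12 against MIY. Its partner Uqcrc2 was at 0.35 ± 0.11 (adjusted p = 0.0344) and was not called at a common median (0.23), and Uqcr10 (0.28), Uqcrfs1 (0.18) and Uqcrq (0.04, relative -0.08) were not called.

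In complex II all 4 subunits read highest on the Meis1 array with the deposited values. Sdhd, a membrane anchor, read 11.20, against 10.59 to 10.68 in MIG, 10.79 to 10.88 with miR-155, 10.71 to 10.79 in the knockout and 10.54 to 10.63 in MIY. The difference was 0.59 ± 0.08 (limma adjusted p = 0.000896), with a relative 0.47. Sdhb, which passes electrons on through iron-sulphur centres, read 9.85 against 9.37 to 9.42 in MIG and 9.21 to 9.29 in MIY (0.53 ± 0.12, adjusted p = 0.0101, relative 0.42). The other anchor Sdhc (0.43 ± 0.13) was called with the deposited values and not at a common median (relative 0.32), and Sdha (0.25 ± 0.09) was not called. Of the assembly factors, Sdhaf4 was at 0.09 (relative -0.03) and Sdhaf2 at -0.17, the latter called lower at a common median (-0.28).

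In complex I, 9 of 33 genes (27.3%, against 17.1% of all probe sets) were called higher and 1 lower, or 5 (15.2%, against 9.57%) and 2 at a common median. Against MIG alone 3 (9.09%, against 5.97%) were higher and 1 lower. Ndufb2, an accessory subunit of the membrane arm, read 7.86 against 6.81 to 7.19 in MIG and 6.92 to 7.19 in MIY (0.81 ± 0.19, limma adjusted p = 0.0113, relative 0.69). Its difference was nearly the same against either control, 0.81 ± 0.20 and 0.80 ± 0.21. Ndufaf4, an assembly factor, had the largest difference from the empty vectors, 0.95 ± 0.23 (adjusted p = 0.014, relative 0.83). It read 8.65 against 7.84 to 8.08 in MIG and 7.05 and 7.76 in MIY, and against MIG alone the difference was 0.65 ± 0.24 and was not called (adjusted p = 0.105).

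Ndufa8 (0.71 ± 0.17, relative 0.60), Ndufs7 (0.54 ± 0.13, relative 0.43) and Ndufa2 (0.52 ± 0.11, relative 0.40) were called on both scalings, and Ndufs8 (0.45, relative 0.34), Ndufs6 (0.44, relative 0.32), Ndufb5 (0.43, relative 0.31) and Ndufa9 (0.31, relative 0.19) with the deposited values alone. Ndufa6, an accessory subunit of the LYR protein family, went the other way. It read 8.79 on the Meis1 array, against 9.35 to 9.59 in MIG, 9.25 to 9.41 with miR-155, 9.28 to 9.58 in the knockout and 9.15 and 9.52 in MIY. The difference was -0.60 ± 0.16 (limma adjusted p = 0.0203, relative -0.71). Ndufb3 was called lower at a common median (-0.37 ± 0.16 as deposited, relative -0.49), and Ndufs1 (0.30 ± 0.12), Ndufv1 (0.28 ± 0.10) and Ndufv2 (0.09 ± 0.14, relative -0.02) were not called.

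In complex IV, Cox6b1 read 11.73 against 11.19 to 11.38 in MIG and 11.21 to 11.29 in MIY (0.47 ± 0.09, limma adjusted p = 0.00479, relative 0.36), and Cox5a read 10.10 against 9.73 to 9.87 and 9.41 to 9.60 (0.44 ± 0.10, relative 0.33). The remaining genes of complex IV were not called, from 0.55 ± 0.39 for Cox7b to -0.52 ± 0.44 for Cox4i2. In complex V, Atp5g3, which encodes the c subunit of the rotor ring, read 11.03 against 10.23 to 10.59 in MIG and 10.06 to 10.32 in MIY (0.74 ± 0.15, adjusted p = 0.00646, relative 0.63). Atp5a1 read 11.74 against 11.41 to 11.44 and 10.78 to 10.93 (0.60 ± 0.09, adjusted p = 0.00101, relative 0.49), and it was higher by 0.32 ± 0.09 against MIG and 0.88 ± 0.10 against MIY. Atp5b (0.39 ± 0.10, relative 0.27) was called with the deposited values alone, while Atp5mpl (-0.09), Atp5d (-0.03) and Atp5e (0.03, relative -0.08) were not called.

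**Figure D4:**
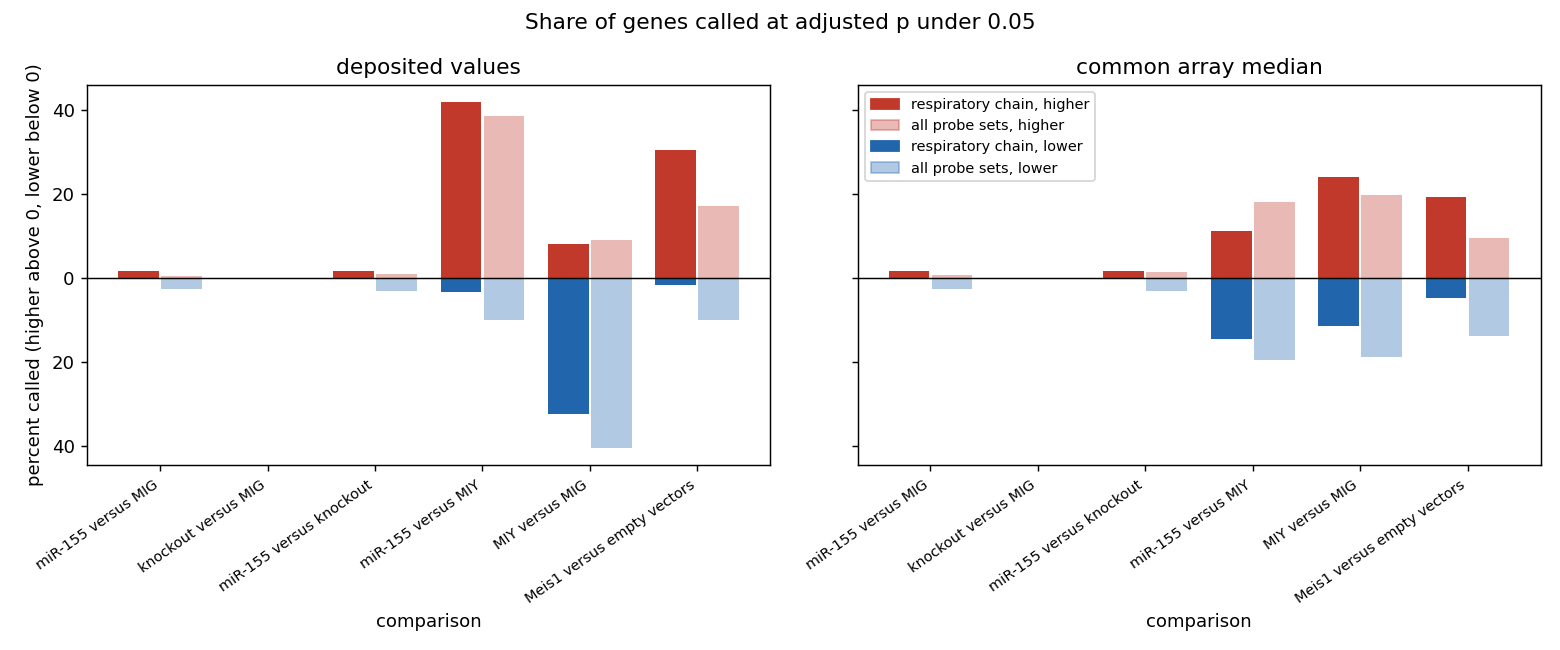
Percent of genes called higher (upward bars) or lower (downward bars) in each of the 6 comparisons, with the 62 respiratory chain genes in full colour and all 16015 probe sets in pale colour, for deposited values (left) and a common array median (right). For Meis1 the members' share of higher genes is 30.6% against 17.1% and 19.4% against 9.57%, while for MIY against MIG the direction of the larger share turns with the scaling.

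Complex IV has forms of its subunits that are typical of certain tissues. Cox4i1, the widespread form of subunit 4, stayed between 9.75 and 10.23 on all arrays. Cox4i2, known from lung, read 7.71 to 8.12 in MIG, 7.83 to 8.05 with added miR-155, 7.77 to 7.88 in the knockout and 7.17 with Meis1, but 6.63 and 8.33 on the MIY arrays, which was the widest gap of any member between those arrays. Cox7b2, known from testis, stayed at 1.61 to 2.15 throughout, in the lowest range of the arrays, whose smallest value was 0.535; no measure of background was used here. Cox8b, known from muscle, read 5.00 to 5.98 over all arrays and was called once, above MIY with miR-155 (0.71 ± 0.23, limma adjusted p = 0.0266), and not at a common median (relative 0.50, adjusted p = 0.107).

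Other genes of the pathway were read from fixed lists. With Meis1, 7 inner membrane ATP and phosphate carriers had a median change of 0.29, or 0.17 at a common median. For 8 mitochondrial antioxidant enzymes the medians were 0.16 and 0.05, against 0.11 and -0.00 over all probe sets. Of 12 electron carrier genes, 4 (33.3%) were called higher on the Meis1 array and 0 lower on both scalings. Among all probe sets 17.1% were higher and 9.93% lower as deposited, and 9.57% and 13.7% at a common median. The carrier genes were Cyc1, the cytochrome of complex III outside the naming rule (0.54 ± 0.13, relative 0.43), and Coq4 (0.81 ± 0.14, relative 0.70), Coq6 (0.46 ± 0.10, relative 0.35) and Coq7 (0.75 ± 0.21, relative 0.64), which make coenzyme Q. Against MIG alone, Cyc1 (0.28 ± 0.13) and Coq4 (0.40 ± 0.14) were not called. Of 31 assembly factors outside the rule, 11 (35.5%) were higher and 2 (6.45%) lower with Meis1, or 6 and 6 (19.4% each) at a common median. Atpaf2, which assembles the F1 part of complex V, was higher by 0.75 ± 0.10 (relative 0.63, limma adjusted p = 0.000464) and also against each control alone (0.40 ± 0.10 and 1.10 ± 0.11).

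The list of citric acid cycle enzymes, which supply the chain with NADH and succinate, also held Pcx and the pyruvate dehydrogenase genes Pdha1, Pdhb and Dlat. Of its 16 genes, 9 (56.2%, against 17.1% of all probe sets) were called higher with Meis1 and 0 lower. At a common median 5 (31.2%, against 9.57%) were higher and 0 lower. Pdha1 and Dlat were among the 9, and Dlat was among the 5. Fumarate hydratase, Fh1, read 10.60 against 9.95 to 9.99 in MIG and 9.46 and 9.90 in MIY (0.77 ± 0.13, relative 0.65, limma adjusted p = 0.0026). Malate dehydrogenase 2, Mdh2, read 11.94 against 11.47 to 11.63 and 10.98 and 11.09 (0.66 ± 0.09, relative 0.54, adjusted p = 0.00084). Both were called against each control alone. Idh3a, of the NAD-linked isocitrate dehydrogenase, was higher by 0.95 ± 0.27 (relative 0.83, adjusted p = 0.0275) and was not called against MIG alone (0.84 ± 0.28).

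Among 17 regulators of mitochondrial biogenesis, 4 (23.5%, against 17.1% of all probe sets) were called higher with Meis1 and 1 lower, or 2 (11.8%, against 9.57%) and 1 at a common median, shares near those of all probe sets. Ppargc1a, the coactivator PGC-1alpha that drives respiratory genes in muscle and brown fat, read 5.47 on the Meis1 array, against 3.83 to 4.05 in MIG, 3.78 to 4.04 with miR-155, 3.88 to 4.08 in the knockout and 3.42 and 3.60 in MIY. No other array came near it. The difference from the empty vectors was 1.76 ± 0.13 (relative 1.64, limma adjusted p = 1.16e-05), and it was 1.55 ± 0.14 against MIG and 1.96 ± 0.15 against MIY. All of these Ppargc1a levels lie below the array medians of 6.33 to 6.49, and those of the controls lie close to the 3.32 to 3.50 read for the Y-linked Kdm5d on the 9 arrays of low Y-linked signal. The controls are thus not shown to be above background, and the size of the difference is not given as a fold. Polg2, the accessory subunit of the mitochondrial DNA polymerase, was lower with Meis1 (-0.90 ± 0.18, relative -1.01) but was not called against MIG alone (-0.30 ± 0.19). Its level was 5.93 to 6.06 in MIG, 5.70 with Meis1, and 6.87 and 7.51 in MIY.

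In MIY against MIG, 11 of these 17 regulators (64.7%) were called lower and 1 (5.88%) higher as deposited, against 40.4% and 9.1% of all probe sets. At a common median 3 were lower and 3 higher (17.6% each), near the 18.7% and 19.9% of all probe sets. Myc, a growth regulator that also acts on mitochondrial genes, read 12.07 to 12.12 in MIG and 11.14 and 10.71 in MIY (-1.17 ± 0.11, limma adjusted p = 4.31e-05, relative -0.95). Pprc1, a PGC-1 related coactivator, read 8.28 to 8.33 and 7.41 and 6.88 (-1.16 ± 0.14, relative -0.93), while Polg2 rose by 1.18 ± 0.15 (relative 1.41). Of the 16 genes on the citric acid cycle list 10 (62.5%) were lower and 0 higher, or 5 (31.2%) and 3 (18.8%) at a common median. Of 12 carriers 5 (41.7%) were lower and 1 (8.33%) higher, or 3 and 3 (25% each). The neighbouring lists, like the chain itself, therefore depended on the scaling in this comparison.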

How the data were processed

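Expression was measured on 12 Affymetrix arrays in 5 groups. The authors deposited 1 log2 value per probe set and array, produced by RMA (Affymetrix Expression Console) per the submitters' processing notes. RMA corrects background, normalizes between arrays and summarises probes, which compresses small changes; no version of either is given in the sources. Of 23332 probe sets, 14996 have 1 symbol in the platform annotation and 1019 several, and these 16015 were tested. All arrays entered 1 fit with a mean per group in limma 3.58.1 (R 4.3.3; 7 residual and 3.06 prior degrees of freedom), which was tested on simulated data. P-values were adjusted over all 16015. Errors are SE for changes and SD for levels. For arrays, their number limits the precision.

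The genes, lists and tests were chosen with earlier results of these data known. Genes were named by rule. They were the called ones (up to 15 each way), the extremes of each complex and the fixed set of 10 subunits. The tissue isoforms and up to 5 called genes per list were named too. The 62 genes held no Cox6b2, Cox7a1, Cox8a, Cox8c, Ndufa4 or Ndufa4l2. The alternatives were common-median and quantile scaling, a filter on the dimmest 20%, a replicate block, only the groups compared, mean probe sets, current symbols, single controls and leaving out each array.

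Same-numbered arrays of MIG, miR-155 and the knockout correlated at -0.0667 to 0.164 in their deviations from group means, with 4 of 9 pairs over 0.1. Pairs of different numbers ran from -0.146 to 0.114, with 1 of 18 over 0.1. The main fit did not pair the samples by number, and the replicate block was the alternative that used the numbers.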

Additional observations from a re-analysis of the deposited data

How the results depend on the processing

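The counts of called respiratory chain genes kept within 1.5 times their value in 64 alternative runs and moved further in 21. Calls over all 16015 probe sets moved too. In the main setting they were 527 for miR-155 against MIG, 7737 for miR-155 against MIY, 7921 for MIY against MIG and 4333 for Meis1. Quantile scaling gave 645 for miR-155 against MIG and 6271 against MIY. With only the groups compared, miR-155 against MIY had 5082, MIY against MIG 6330 and Meis1 2021. For Meis1, MIG as sole control gave 2460, or 2659 at a common median. For miR-155 against MIG the count of 1 became 3 with quantile scaling and was 0 to 1 with each array left out. The knockout count was 0 in every setting. For miR-155 against the knockout the count of 1 was 0 to 1 with each array left out (without miR-155 replicate 3 the gene called was not Atp5e), and 0 with the replicate block. For miR-155 against MIY the count of 28 became 16 at a common median, 18 with quantile scaling, 16 with only the groups compared, 15 to 29 with each array left out, and 14 at a common median without MIY replicate 2. For MIY against MIG the count of 25 became 11 with only the groups compared and 15 to 25 with each array left out, with 15 without MIG replicate 1 and 16 without MIY replicate 2. For Meis1 the count of 20 became 8 with only the groups compared, 10 with MIG as sole control, 13 with MIG as sole control at a common median, and 15 to 28 with each array left out. Of the genes called, 10 of 28, 10 of 25 and 16 of 20 in the last 3 comparisons were called in every run that left out an array. For Meis1 these runs left out control arrays only, so its 16 of 20 does not test the single array on which the calls rest. The replicate block gave 1, 0, 0, 27, 22 and 15 calls in the order of the report's comparisons of miR-155 with MIG, the knockout with MIG, miR-155 with the knockout, miR-155 with MIY, MIY with MIG, and Meis1. In the check of array numbers, 4 of 9 arrays correlated best with their own number.

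Among the respiratory chain genes called with the deposited values, changes turned sign at a common median without MIY replicate 2, added with the data in view, and in no other alternative run: for miR-155 against MIY Cox5a (-0.01) and Ndufb9 (-0.03), and for MIY against MIG Cox5a (0.01), Ndufaf1 (0.00), Ndufb7 (0.09), Ndufs4 (0.02), Ndufs8 (0.03), Sdhc (0.02) and Uqcrq (0.05). The cause was not tested. Leaving out the Meis1 array gives no value. With 1 to 3 arrays a group, the number of arrays limits the precision.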
